A study of Sus scrofa with 70 samples.

Results

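The 8 genes described here are regulators of transcription in the late steps of spermatogenesis, CREM, RFX2, SOX30, TBPL1, MYBL1, TCFL5, CAMK4 and SOX5, chosen by name from the 35678 genes of the expression table. Their levels were the summed TPM (transcript abundance scaled for transcript length and library total) of every transcript annotated to the gene, and their 72 quantified transcripts were then taken singly. The data were RNA-seq of the testis and 4 other glands (the epididymis and the vesicular, prostate and bulbourethral glands) from boars aged 12 months of the Banna mini-pig inbred line (BMI) and the Diannan small-ear pig (DSE), the non-inbred breed from which BMI was derived. Each breed and gland had 3 RNA-seq libraries, 30 in all, and 1 long-read (Iso-seq) library, with 231413 to 458697 full-length reads over the isoforms listed in the deposited table, which is only part of the reads of a library. No treatment or genetic change is given for any group. The libraries were made from pieces of whole gland, and nothing in the labels ties a library to one boar, so the p-values measure the spread between tissue samples, which may be partly technical. TPM keep no read depth.

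CREM had no name in the annotation of the files. RefSeq places it on chromosome 10 (57829523 to 57895610, plus strand, Sscrofa11.1, the build of the files), and there Ensembl holds 2 unnamed genes, ENSSSCG00000052364 over the upstream exons and ENSSSCG00000011106 over the downstream exons. A further 15 Iso-seq isoforms ran across both and carried a joined label. The 3 labels were summed as CREM. This choice mattered: the downstream label alone gave a level that was lower in testis by 1.21 on the log2 scale, the reverse of the sum. The other 7 genes were matched by symbol.

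Round spermatids, the haploid cells that follow meiosis, transcribe a large set of genes before their chromatin is packed with protamines. CREM, a leucine zipper factor that binds cAMP response elements, is the best known activator in these cells, and the same gene gives short repressors from an internal promoter in somatic tissue. RFX2 and SOX30 switch on spermatid and flagellum genes, TBPL1 is a relative of the TATA-binding protein, MYBL1 and TCFL5 act from the pachytene stage of meiosis, SOX5 has a short testis form beside the long form of cartilage and nerve, and CAMK4 gives both a kinase and calspermin, a small calmodulin-binding protein made from the last exons of the gene.

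The testis starts of 4 genes are shown because they lay in no RefSeq exon of their gene and at least 196 of the 200 bases before them were free of annotated exons. The MYBL1 start at 68120048 also lay in no RefSeq exon, but an annotated exon covered most of the bases before it, and it is not shown. Each sequence is the stretch just upstream of the start, outside every annotated exon, read from the Sscrofa11.1 reference in the direction of transcription. Capitals mark a match to GTTGCCA, a core of the X-box bound by RFX factors, on either strand.

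CAMK4, chr2:116220112-116220307, plus strand, ending 4 bases before the start of PB.11126.4: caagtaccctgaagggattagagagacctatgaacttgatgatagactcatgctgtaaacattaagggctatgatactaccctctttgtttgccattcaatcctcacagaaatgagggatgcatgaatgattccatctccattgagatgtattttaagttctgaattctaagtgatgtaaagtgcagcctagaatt
SOX5, chr5:49955780-49955979, plus strand, ending at the start of PB.14641.73: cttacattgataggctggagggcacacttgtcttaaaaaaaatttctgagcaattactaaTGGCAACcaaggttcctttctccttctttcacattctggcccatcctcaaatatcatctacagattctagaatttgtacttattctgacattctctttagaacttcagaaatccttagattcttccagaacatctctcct
TBPL1, chr1:29937755-29937954, minus strand, ending at the start of PB.239.1: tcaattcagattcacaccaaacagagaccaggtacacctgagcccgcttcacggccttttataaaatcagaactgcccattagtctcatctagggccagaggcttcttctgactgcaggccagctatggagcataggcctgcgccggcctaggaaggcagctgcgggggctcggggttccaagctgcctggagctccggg
RFX2, chr2:72949651-72949850, plus strand, ending at the start of PB.10665.8: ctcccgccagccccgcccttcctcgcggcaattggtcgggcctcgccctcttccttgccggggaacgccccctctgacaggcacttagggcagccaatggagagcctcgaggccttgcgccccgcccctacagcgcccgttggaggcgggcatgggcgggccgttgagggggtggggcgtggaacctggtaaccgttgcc

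The SOX5 window held the GTTGCCA match 140 bases before the start, on the other strand, and the remaining 3 windows held none. Such a match stood in 3.09% of the 200-base windows before all 51121 start groups that could be read. The full cAMP response element TGACGTCA (1.2% of all windows) and its shorter core TGACG (14.7% of all windows, and contained in the full element) were in none of the 4. G and C made up 38% of the 200 bases before the start for CAMK4, 37% for SOX5, 57.5% for TBPL1 and 71.5% for RFX2.

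All 8 regulators were higher in testis than in the mean of the other 4 glands (limma on log2(TPM + 1) over 19909 genes, 30 libraries, adjusted p below 0.05 and a difference of at least 1). Over all genes tested, 34.5% were called higher in testis, and the median difference was 0.31 on the log2 scale. Scaling by size factors moved that median to 0.12, a shift of -0.18, and left all 8 calls in place. The epididymis, which stores sperm, was second in median level for 7 of the 8 genes. TBPL1 was the exception, with its second highest median in the prostate gland. Only for TCFL5 did the epididymis range lie above all of the accessory glands. The epididymis medians of SOX30, MYBL1, CAMK4 and SOX5 were at most 0.535 TPM.

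**Figure D1:**
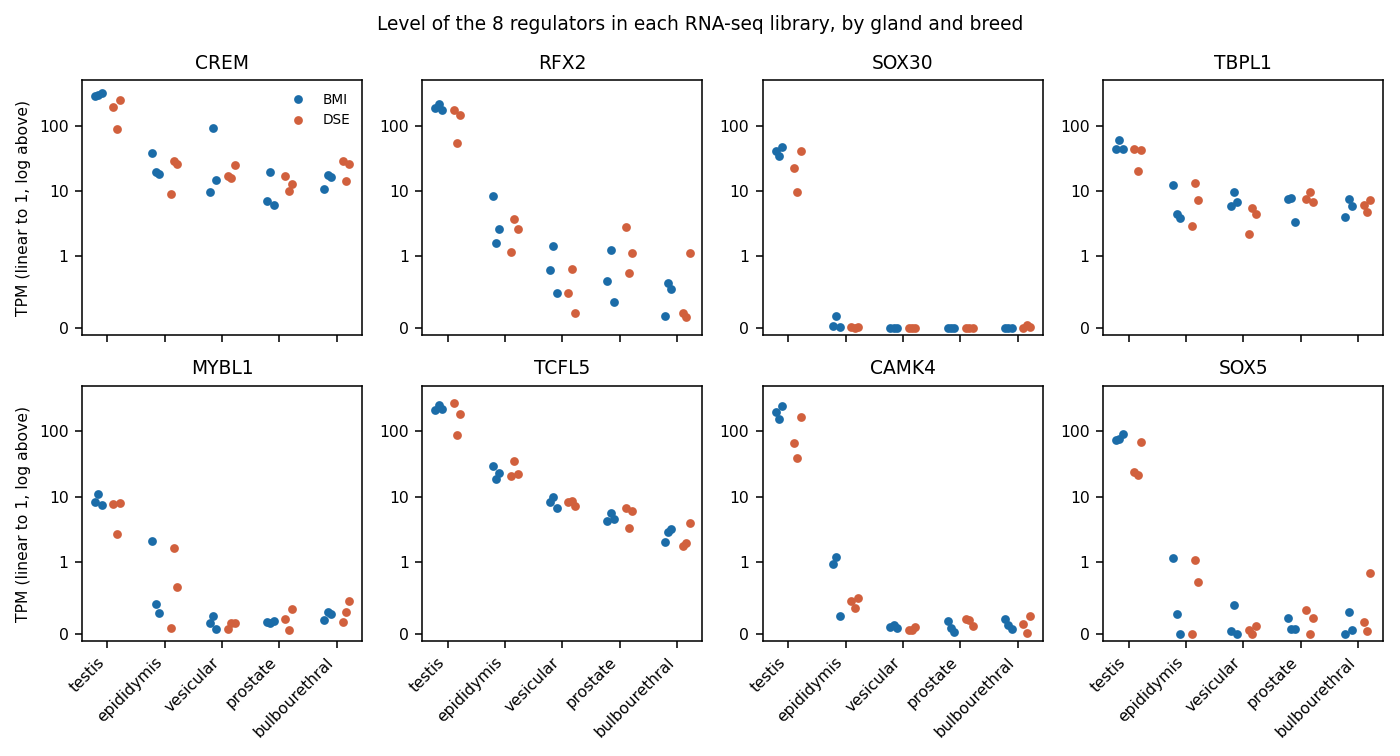
TPM of each regulator (y axis, linear to 1 and logarithmic above) in every RNA-seq library of the 5 glands (x axis), with BMI in blue and DSE in orange; each point is 1 library. For 7 genes every testis library lay above every library of the other glands, and for CREM 1 vesicular gland library, at 92.4 TPM, reached the lowest testis library. The share of all genes that separate in this way is not given here, so the count is only a description.

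The spermatid activators came first. CREM stood at 90.4, 264 and 322 TPM (lowest, median and highest of 6 testis libraries) against a lowest of 5.96, a median of 16.8 and a highest of 92.4 TPM in the 24 other libraries. The log2 difference was 3.61 ± 0.33 (SE; limma, adjusted p = 3.4e-10). The 92.4 TPM came from BMI vesicular gland replicate 2, and the median of the 6 libraries of that gland was 16.2 TPM.

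RFX2, which drives genes of the flagellum, was 54.4, 175 and 216 TPM in testis and 0.154, 0.810 and 8.46 TPM elsewhere. The groups did not overlap, and the difference was 6.15 ± 0.24 (adjusted p = 1.5e-17). Epididymis libraries held 1.16 to 8.46 TPM, overlapping the prostate gland at 0.364 to 2.73 TPM.

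SOX30, which acts in spermatids, was 9.67, 37.3 and 46.9 TPM in testis. In the other glands 17 of 24 libraries were listed at 0 and the highest, from the epididymis, reached 0.163 TPM. Of the 8 genes it had the widest gap between groups, its lowest testis library being 59.4 times the highest other library. The difference was 4.89 ± 0.15 (adjusted p = 1.1e-19).

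TBPL1, the relative of the TATA-binding protein, was 20.1, 43.5 and 60.5 TPM in testis against 2.17, 6.35 and 13.4 TPM in the other glands. It was the regulator with the smallest difference, 2.56 ± 0.24 (adjusted p = 5.7e-10), and the 4 other glands overlapped in range.

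The meiotic regulators followed. MYBL1 was the least abundant of the 8 in testis, at 2.69, 7.91 and 11.098 TPM, with 0.0515, 0.197 and 2.08 TPM elsewhere, a difference of 2.62 ± 0.18 (adjusted p = 1.4e-12). TCFL5 was 87.9, 216 and 274 TPM in testis. It alone of the 8 formed a series of glands that did not overlap, with 18.5 to 35.2 TPM in epididymis, 6.59 to 9.99 TPM in the vesicular and 3.28 to 6.56 TPM in the prostate gland, and only the last overlapped the bulbourethral gland, at 1.71 to 3.91 TPM. The difference for testis was 4.55 ± 0.18 (adjusted p = 1.5e-17).

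The kinase gene CAMK4 was 39.5, 161 and 251 TPM in testis against 0.0161, 0.128 and 1.18 TPM elsewhere. This was the largest difference of the 8, 6.67 ± 0.17 (adjusted p = 4.8e-21), and the epididymis, at 0.241 to 1.18 TPM, overlapped the bulbourethral gland, which reached 0.252 TPM, and lay above the prostate gland, at 0.0287 to 0.204 TPM. SOX5 was 21.2, 70.8 and 90.4 TPM in testis and 0, 0.0868 and 1.13 TPM elsewhere, a difference of 5.42 ± 0.19 (adjusted p = 1.8e-18).

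The order in testis by median ran from CREM through TCFL5, RFX2, CAMK4, SOX5, TBPL1 and SOX30 to MYBL1, on the TPM scale, which accounts for length. Neighbours in this order overlapped in their testis ranges. The testis label held against markers: the 5 spermatid markers (PRM1, TNP1, ACRV1, ODF1, SPACA1) summed to 23155 to 100566 TPM in testis, 1.40 to 931 TPM in epididymis and at most 6.64 TPM in the 3 accessory glands. The 3 epididymis epithelium markers summed to 1635 to 9039 TPM in 5 of the 6 epididymis libraries, but to 28.9 TPM in DSE epididymis replicate 1, which therefore stands apart, and to at most 3.27 TPM in any other gland. Where the epididymis values of the regulators come from was not tested. Without the epididymis libraries all 8 remained called.

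Full-length reads came mostly from testis for 7 of the 8 genes. SOX30 had 122 BMI and 70 DSE testis reads and none in the 8 other Iso-seq libraries, the isoforms labelled SOX5 alone had 75 and 18 with none elsewhere, and CAMK4 had 11 and 3 with none elsewhere. RFX2 had 277 and 390 testis reads against 0 to 4 per other library, and CREM had 145 and 101 against 1 to 7. TBPL1 was found in all 10 libraries, with 36 and 44 testis reads and 5 to 43 elsewhere. Scaled to 1000000 reads over the listed isoforms of its library, TBPL1 in testis (79.1 and 96.1) lay below BMI vesicular gland (122.5) and DSE prostate gland (128), so the higher TBPL1 level of testis in TPM was not seen on this scale. MYBL1 (6 and 7) and TCFL5 (1 and 6) were thinly sampled, although TCFL5 was among the most abundant by TPM. Isoforms with fewer than 2 full-length reads in all were not listed, so a read count of 0 covers listed isoforms only.

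At the level of transcripts, 37 of the 46 member transcripts that passed the filter (1 TPM in at least 3 libraries) were called higher in testis and 1 lower, beside 28.4% and 9.53% of the 64661 transcripts tested. Filtering kept transcripts that were high in testis alone, so the count describes those 46 and not all 72. The 1 that was lower was ENSSSCT00000033626 of CREM.

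CREM switched its starts between tissues. Transcript starts within 500 bp of each other were joined into start groups, and the group's share of the gene's TPM was compared (limma on shares, 6 testis against 24 other libraries). The most upstream common start, at 57829599, held 35.2% ± 5.9 (SD, n = 6) of CREM in testis and 27.9% ± 9.3 (n = 24) elsewhere, a difference of 7.35 ± 3.97 percentage points that was not called (adjusted p = 0.16). Counted together, 6 of the 8 start groups of CREM and TBPL1 tested were called in share, beside 27.4% of the 14266 start groups tested. Shares of a gene add up to the whole, so the TBPL1 calls mirror each other and the count is not of separate results.

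A pair of internal CREM starts was used in testis and hardly elsewhere. The start at 57862211 gave 28.2, 111 and 140 TPM in testis and at most 1.26 TPM in the other 24 libraries, and its share was 41.2% ± 7.9 against 0.716% ± 1.77 (difference 40.5 ± 1.7 points, adjusted p = 1.1e-18). The start at 57854548 gave 15.5, 57.5 and 87.2 TPM in testis and at most 0.531 TPM elsewhere, a share of 20.9% ± 3.9 against 0.336% ± 1.01 (difference 20.6 ± 0.9 points, adjusted p = 4.1e-18). Both lay inside the first exon of RefSeq models of CREM that begin somewhat further upstream.

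The other glands drew mainly on a start far downstream, at 57881622 to 57881666. It held 0.996% ± 0.26 of CREM in testis and 55.3% ± 12.3 elsewhere, from 28.7% to 87.8%, so that no library of one group reached the other (difference -54.3 ± 5.0 points, adjusted p = 1.8e-10). In TPM the same start was 0.779, 2.33 and 3.75 in testis, and by median 12.4 in the epididymis and 9.42, 5.22 and 7.72 in the vesicular, prostate and bulbourethral glands. Its highest value, 81.1 TPM, was the vesicular gland library with 92.4 TPM of CREM, and there it made up 87.8% of the gene. A further start at 57882226 held 13.7% ± 6.8 elsewhere and 1.56% ± 2.39 in testis (limma, adjusted p = 0.00079). The 200 bases before it held 2 matches to TGACG, 114 and 30 bases before the start, although unlike the windows shown above these bases lie within an annotated exon. The windows before the other CREM starts, the leading downstream one included, held no such match.

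**Figure D2:**
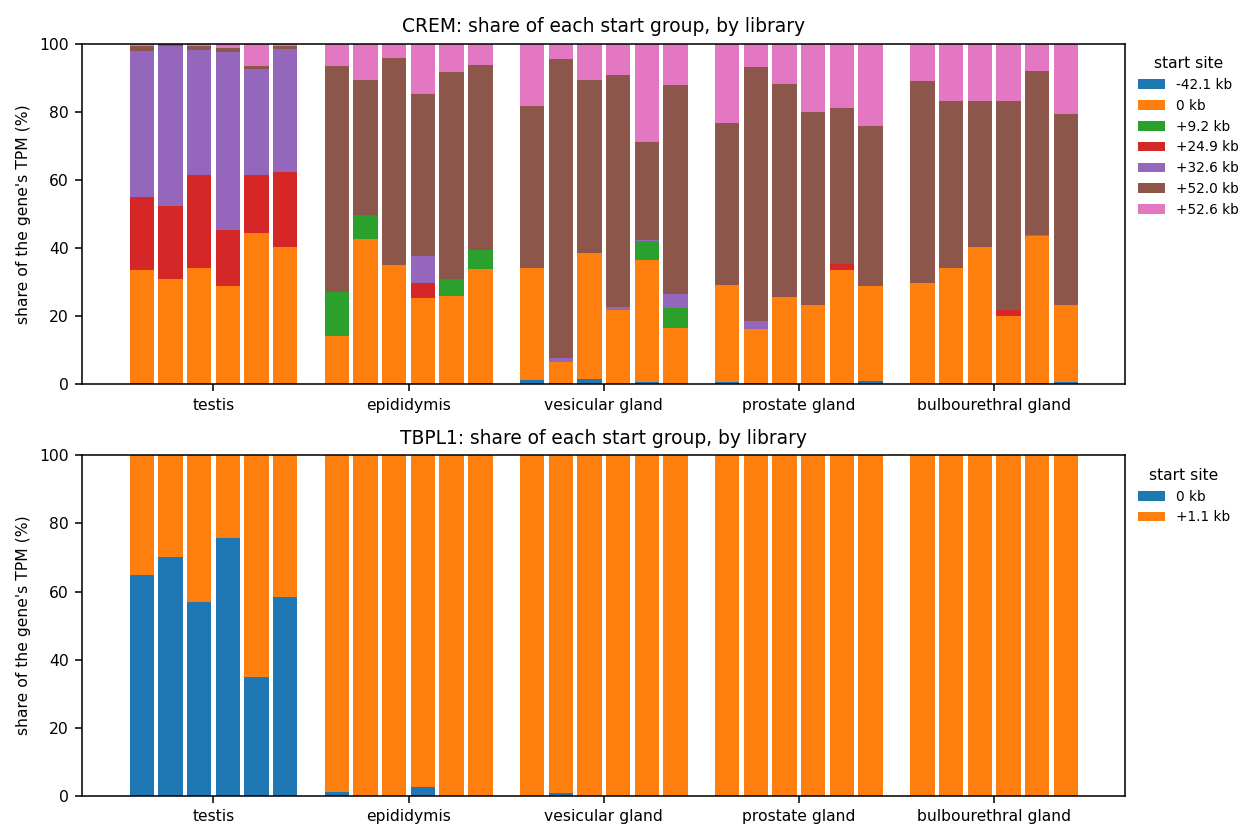
Share of the TPM of CREM (top) and TBPL1 (bottom) that came from each start group (y axis, percent) in each of the 30 RNA-seq libraries (bars, grouped by gland, in the order BMI 1 to 3 and DSE 1 to 3). Start sites are named by their distance in kb downstream of the main upstream start. In testis the intermediate starts of CREM (red and purple) and the upstream start of TBPL1 (blue) fill much of each bar, and in the other glands the far downstream start of CREM (brown) and the usual start of TBPL1 (orange) do.

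Full-length reads gave the same 3 leading starts in testis. Of 243 testis reads of CREM with an annotated start, 106 (43.6%, exact 95% interval 37.3 to 50.1%) began at the upstream start, 36 (14.8%, 10.6 to 19.9%) at 57854548, 99 (40.7%, 34.5 to 47.2%) at 57862211 and 1 (0.412%, 0.0104 to 2.27%) at the downstream start. The 8 other libraries held only 30 reads, of which 24 had an annotated start. Of these 24, 10 (41.7%, 22.1 to 63.4%) began at the upstream start, 9 (37.5%, 18.8 to 59.4%) at the downstream start, 1 (4.17%, 0.105 to 21.1%) at 57854548 and 0 at 57862211. The 6 reads without one were all of PB.2705.38, a partial match to the downstream transcript ENSSSCT00000035114, so the order of the upstream and downstream starts depends on how they are counted, and the interval at 57854548 overlaps that of testis. These intervals cover counting error only.

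Among single transcripts PB.2705.29, which begins at 57862211, was the most abundant CREM form in testis by TPM, at 25.6, 85.4 and 107.2 TPM, and 0 in all 24 other libraries. It held 30.4% ± 3.95 (SD, n = 6) of the gene (difference in share 30.4 ± 0.9 points, adjusted p = 1.2e-22). PB.2705.26, from 57854548, followed at 14.7, 46.5 and 75.2 TPM, with 0 elsewhere and a share of 18.01% ± 3.22. PB.2705.18 and PB.2705.17 from the upstream start had medians of 28.3 and 25.2 TPM, but each was at 0 in 1 testis library. By full-length reads in testis PB.2705.18 came first, with 86 reads against 59 of PB.2705.29 and 31 of PB.2705.26. PB.2705.32 and PB.2705.21 were at 0 in 3 testis libraries each. Isoforms of CREM share most of their exons, so the split of reads among those with a common start is less certain than the sum over the start.

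In the other glands the leading CREM transcripts were ENSSSCT00000035114, ENSSSCT00000033626 and PB.2705.17. ENSSSCT00000035114 had a median of 3.83 and a highest of 48.1 TPM elsewhere and 0.599, 1.67 and 2.26 TPM in testis, and its share was 26.2% against 0.683% (difference -25.6 ± 5.6 points, adjusted p = 0.00057). ENSSSCT00000033626 had a median of 3.73 and a highest of 23.0 TPM elsewhere and at most 1.36 TPM in testis (difference in share -26.5 ± 5.8 points, adjusted p = 0.00055). In level it was lower in testis by 1.85 on the log2 scale (SE 0.41, adjusted p = 0.0004). In all, 7 of the 21 transcripts of CREM, TBPL1 and TCFL5 tested were called in share, all 7 of CREM and TBPL1, beside 19.5% of 49714 transcripts tested. Here too the shares within a gene depend on each other.

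**Figure D3:**
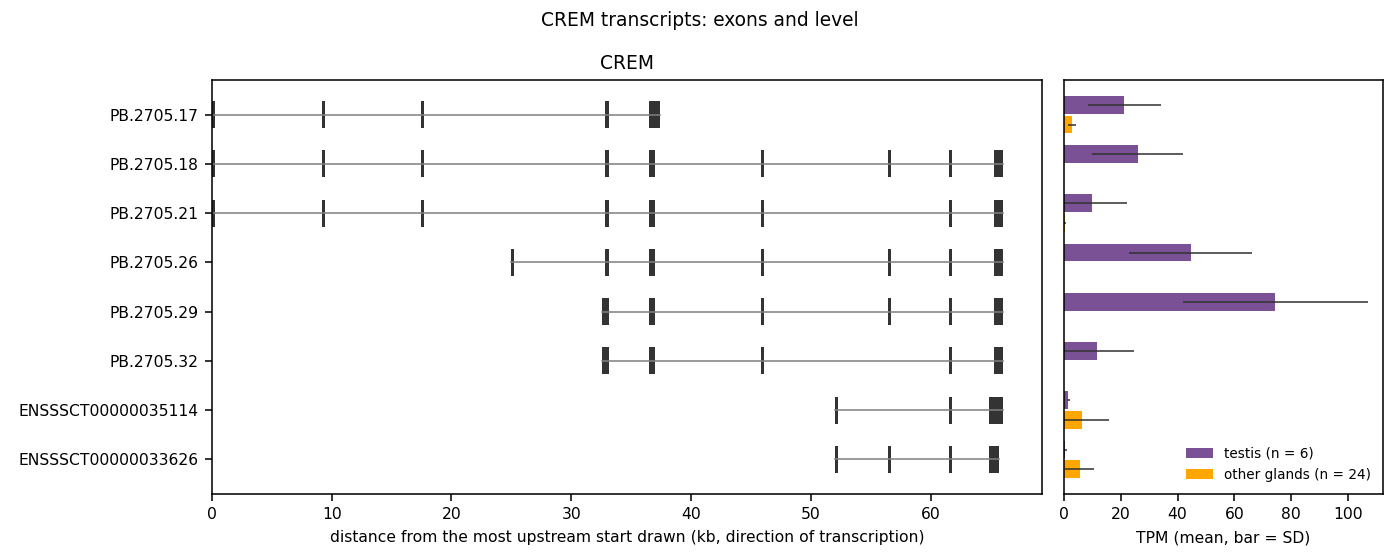
Exons of the CREM transcripts most abundant in testis or in the other glands (left, x axis in kb from the upstream start) and their mean TPM with SD as bars (right, purple for 6 testis libraries, orange for 24 others). The 6 transcripts led by testis begin at 3 sites and mostly run to the last exon, while the 2 transcripts led by the other glands begin far downstream and hold the last exons only.

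The predicted proteins of the 3 abundant full-length forms shared their end, and those of shorter forms did not. PB.2705.18 had an open reading frame of 342 residues, PB.2705.26 of 330 and PB.2705.29 of 305, and the last 304 residues were identical in all 3. The isoforms matching ENSSSCT00000033626 and ENSSSCT00000035114 had frames of 125 and 113 residues, with runs of 68 and 56 residues shared with PB.2705.18 and a different end. PB.2705.17, with 6 exons and 216 residues, shared its first 167 residues with PB.2705.18 and ended differently. Frames were those in the deposited isoform table and no protein was measured.

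TBPL1 had another start in testis with the same predicted protein. The start at 29937754, upstream of the usual one, and a near one at 29937623 formed a group with 7.01, 26.7 and 42.6 TPM in testis and at most 0.116 TPM in the 24 other libraries. The group held 60.2% ± 14.3 of TBPL1 in testis and 0.179% ± 0.57 elsewhere (difference 60.0 ± 2.7 points, adjusted p = 9.5e-18). The pooled spread makes this SE small, because the 24 other libraries hardly varied while testis did. The usual start, at 29936680, stood at 10.5, 16.5 and 18.9 TPM in testis and 2.17, 6.35 and 13.4 TPM elsewhere. Its transcript ENSSSCT00000030224 fell from 84.6% of the gene elsewhere to 35.0% in testis (difference -49.6 ± 5.4 points, adjusted p = 9.1e-09), and PB.239.1 rose to 50.4% (difference 50.3 ± 2.7 points, adjusted p = 6.6e-16). PB.239.1, PB.239.7 and the isoform matching ENSSSCT00000030224 had the same open reading frame of 186 residues. In Iso-seq 28 of 80 testis reads (35.0%, exact 95% interval 24.7 to 46.5%) and 0 of 183 reads from the other glands began at the upstream group. The usual start thus led among testis full-length reads (52 of 80, 65%, 53.5 to 75.3%), while the upstream group led by TPM. The kit was not stated to keep strand, and 2 transcripts on the other strand overlap exons of TBPL1, with a summed mean of 2.52 TPM in testis.

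By TPM, CAMK4 in testis came almost wholly from its last exons. PB.11126.4, with 3 exons and a start at 116220312, gave 34.0, 153 and 239 TPM in testis and 0 in all 24 other libraries. With PB.11126.3, which starts 4 bases upstream, it made up 96.7% ± 0.58 of the gene in testis. The 15-exon PB.11126.2 gave 1.03, 3.46 and 4.64 TPM. The reading frame of PB.11126.4 was 164 residues, all identical to the end of the 473 residues of PB.11126.2. Full-length reads were few and gave a lower share: 7 of the 12 testis reads with an annotated start began at the downstream start (58.3%, exact 95% interval 27.7 to 84.8%). Of the rest, 3 came from PB.11126.2 and 2 from PB.11126.1, which also has 15 exons. Only 1 other library reached 1 TPM of CAMK4, so shares were not compared with the other glands.

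SOX5 in testis came from an internal start at 49955980. PB.14641.73, with 11 exons, gave 19.2, 66.5 and 84.5 TPM and made up 94.0% ± 2.81 of SOX5, and 84 of the 93 testis reads were of this isoform. Its frame of 485 residues was identical to the end of a frame of 716 residues predicted for a longer isoform. That longer isoform is 1 of 10 whose label joins SOX5 with a neighbouring gene, which together had 43 full-length reads, 24 of them in testis and the rest in other glands, and were not summed here. Outside testis the level was too low to compare shares, and ENSSSCT00000071491, the leading form there, did not pass 0.713 TPM.

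**Figure D4:**
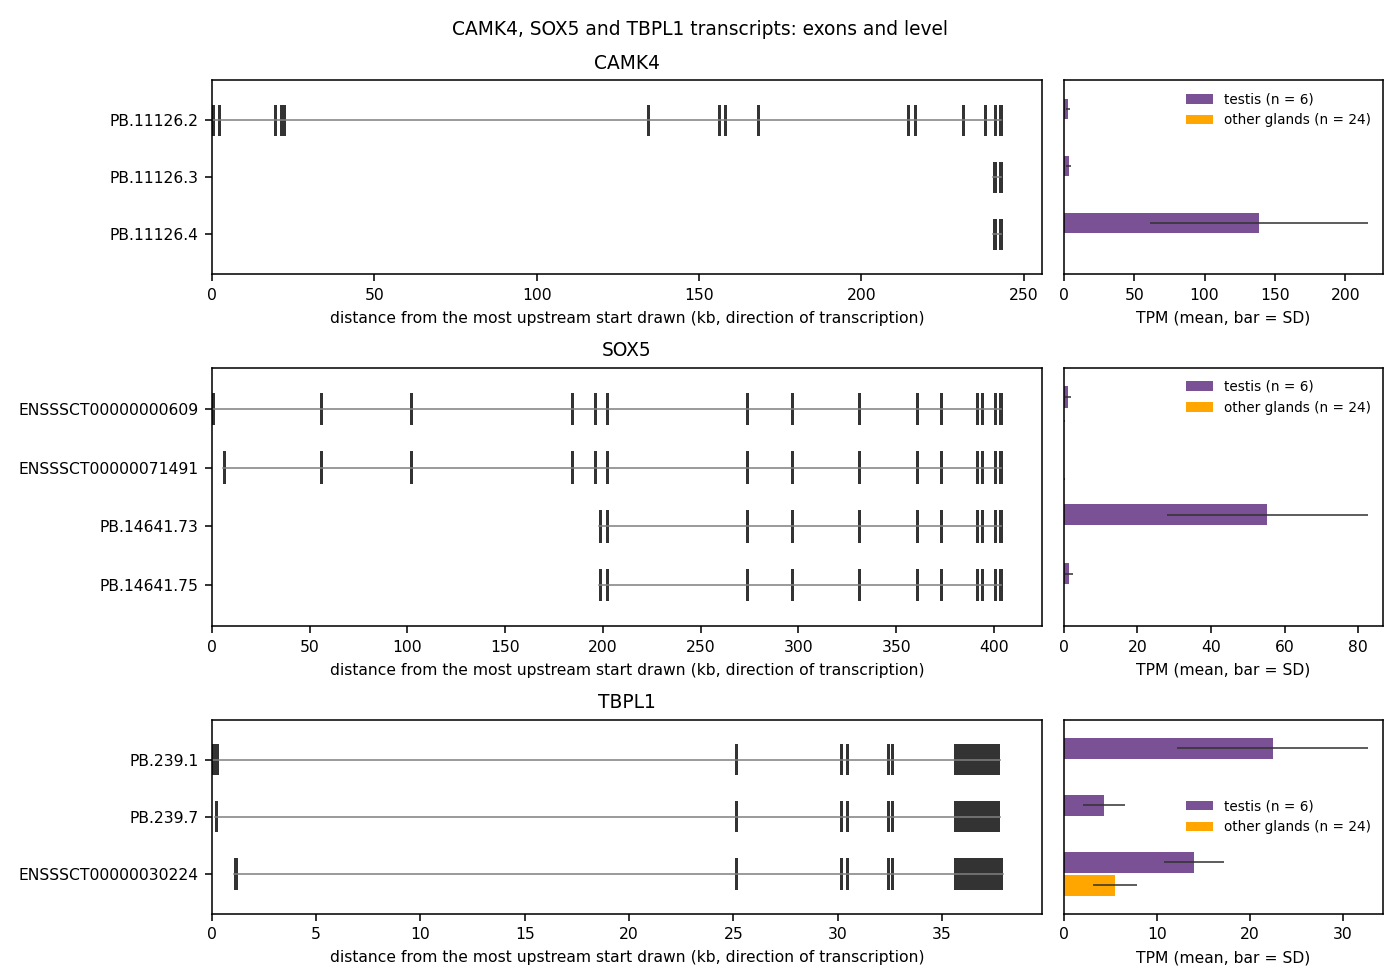
Exons of CAMK4, SOX5 and TBPL1 transcripts (left, x axis in kb from the most upstream start drawn) and their mean TPM with SD as bars (right, purple for 6 testis libraries, orange for 24 others). By TPM the most abundant testis forms are the 3-exon PB.11126.4 of CAMK4, PB.14641.73 of SOX5 and PB.239.1 of TBPL1, each with a mean near 0 in the other glands.

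The remaining genes had 1 main start in testis. RFX2 began at 72949851 to 72950056 for 94.8% ± 2.9 of its testis level, shared between PB.10665.8 (20.2, 61.7 and 79.6 TPM, 728 residues) and PB.10665.5 (18.8, 63.7 and 80.9 TPM, 772 residues). These frames were the same over the first 66 and the last 664 residues. Outside testis ENSSSCT00000060767 of RFX2 led, from a separate start at 72994890, at 0, 0.388 and 5.94 TPM. The main start as a whole still held 65.3% of RFX2 in the 11 other libraries with at least 1 TPM, against 30.7% for the separate one, and all 9 full-length reads of the other glands began there. TCFL5 came from ENSSSCT00000064154 in testis (80.9, 203 and 259 TPM, 93.2% ± 1.23) and elsewhere (87.2% of the gene), a difference that was not called (adjusted p = 0.21). None of the few full-length reads of TCFL5 was of this transcript: the 7 in testis and the 3 elsewhere were of PB.9197.1 and PB.9197.2, which held 2.85% and 3.97% of its testis TPM. SOX30 was quantified as a single transcript, ENSSSCT00000018564. MYBL1 was PB.13300.3 for 86.3% ± 7.68 of its testis level, and PB.13300.3 had the higher mean in the other glands except the bulbourethral gland, where ENSSSCT00000063802 did (0.171 against 0.110 TPM).

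Related genes were read from lists. Of 19 tested family members of the regulators, 7 were higher in testis and none lower, with a median difference of 0.77, so the share called was near that of all genes. RFX4 (6.03 ± 0.16), RFX8 (3.55 ± 0.19) and RFX3 (3.18 ± 0.20) led, while CAMK2D (-0.75) and CAMK2G (-0.87), broadly expressed calmodulin kinases, were not called. Of 18 tested partners and other germ cell regulators, 13 were higher and 1 lower, with a median of 3.93. KIF17, a motor protein that carries the CREM coactivator ACT, stood at 94.1, 321 and 416 TPM in testis and at most 3.30 TPM elsewhere (difference 7.79), followed by the bromodomain protein BRDT (7.19) and the heat shock factor HSF5 (6.54). CAMKK1, a kinase that activates CAMK4, was not called (-0.81), and CREB3L4 was lower by 2.68. All 18 haploid spermatid genes were higher, with a median of 8.42, from PRM1 (13.47), TNP1 (12.47) and PRM2 (11.45) to CLGN (5.58) and TSSK3 (4.83).

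The genes most like each regulator over the 30 libraries were taken by Pearson correlation of log2(TPM + 1) among 13873 named genes. SOX30 was nearest to GARIN5B (r = 0.999) and EFCAB3 (0.999), CAMK4 to MMEL1 (0.998) and CCDC42 (0.998), SOX5 to FAM221B (0.994) and TMC7 (0.993), RFX2 to RGS22 (0.992) and ARHGAP33 (0.989), and MYBL1 to RYR3 (0.990) and CEP85L (0.988). TCFL5 was nearest to CFAP70 (0.982) and PROSER3 (0.977), TBPL1 to PPP1CC (0.972) and TLK2 (0.967), and CREM to DONSON (0.952) and SNAP29 (0.947). All the pairs share the step between testis and the other glands, and its part in these values was not tested. Within the 6 testis libraries alone r ran from 0.77 (TCFL5 and PROSER3) to 0.99 (CAMK4 and MMEL1). These values are a description.

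Between breeds the regulators were compared within testis. DSE means were below BMI means for all 8 genes, and 2 were called: CAMK4 and SOX5 (limma, all 30 libraries in the fit), beside 4.75% of all genes tested, of which 734 were lower and 211 higher in DSE. The median log2 difference was -0.83 for the 8 genes and -0.05 over all genes tested. It was also negative for spermatocyte markers (-0.87), spermatid markers (-0.69), haploid spermatid genes (-0.65), partners (-0.58) and family members (-0.40). Sertoli cell (0.57), Leydig cell (0.64), smooth muscle (0.44) and spermatogonial (0.21) markers had positive medians. The share of all genes with a lower DSE mean is not given here. CAMK4 was 157, 201 and 251 TPM in the 3 BMI libraries and 39.5, 65.8 and 165 TPM in the 3 DSE libraries, a log2 difference of -1.39 ± 0.31 (adjusted p = 0.0046). SOX5 was 73.3, 75.7 and 90.4 TPM in BMI and 21.2, 23.7 and 68.4 TPM in DSE, a difference of -1.26 ± 0.34 (adjusted p = 0.023). The highest DSE library overlapped BMI for CAMK4 and lay below it for SOX5. Fitted on the 6 testis libraries alone, the SE rose to 0.49 for CAMK4 and 0.43 for SOX5. In that fit limma called neither (adjusted p = 0.3 and 0.28), and 3 members had an unadjusted p below 0.05.

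The other 6 were not called. SOX30 (34.3 to 46.9 TPM in BMI, 9.67 to 40.4 TPM in DSE) had an adjusted p of 0.036 but a difference of -0.92, short of the minimum of 1. CREM was 284, 297 and 322 TPM in BMI and 90.4, 195 and 245 TPM in DSE, without overlap, and its difference of -0.88 ± 0.59 had an adjusted p of 0.5. This SE pools the spread of every gland, the vesicular gland library at 92.4 TPM included. RFX2 differed by -0.79 ± 0.43, MYBL1 by -0.55 ± 0.32, TBPL1 by -0.54 ± 0.43 and TCFL5 by -0.47 ± 0.32, and a missed threshold does not show that the breeds were alike. Full-length reads did not all run the same way. The single testis Iso-seq libraries held 455023 reads in BMI and 457778 in DSE. RFX2 had more reads in DSE (390 against 277), as did TBPL1 (44 against 36), MYBL1 (7 against 6) and TCFL5 (6 against 1). CREM, SOX30, CAMK4 and SOX5 had fewer in DSE.

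A single library carried much of this. DSE testis replicate 2 was the lowest of the 6 for all 8 regulators. The share of all genes that were lowest in this library is not given here. In the same library the spermatid markers summed to 23155 TPM against 66530 to 100566 TPM in the other 5, the 5 spermatocyte markers to 72.7 against 155 to 275 TPM, the 5 Sertoli cell markers to 468 against 163 to 261 TPM and the 5 Leydig cell markers to 63471 against 18555 to 32309 TPM. Some sums also differed by breed. Leydig cell sums were higher in every DSE (23925 to 63471 TPM) than in every BMI testis library (18555 to 21750 TPM). So were spermatogonial sums (37.3 to 54.2 against 24.5 to 30.0 TPM) and smooth muscle sums (100 to 160 against 87.6 to 95.6 TPM). In bulk tissue fewer germ cells and less RNA per germ cell cannot be told apart. Without DSE testis replicate 2 the differences shrank to -0.93 for CAMK4 and -0.96 for SOX5, neither called (limma, adjusted p = 0.046 and 0.19). For the other 6 they shrank to between -0.02 and -0.46. SOX5 also lost its call without BMI testis replicate 1, 2 or 3 (adjusted p = 0.056, 0.059 and 0.11) or DSE testis replicate 1 (0.079), and SOX30 gained one without DSE testis replicate 3 (-1.38).

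DSE testis replicate 1 followed another course, which was noticed after its values were seen. Its spermatid markers did not move together. PRM1 (71826 TPM against 46809 to 63619.8 in BMI) and TNP1 (26595 against 13378 to 17983 TPM) were the highest of the 6 and carried the sum of 100566 TPM, while ACRV1 (73.3 against 275 to 402 TPM), SPACA1 (121 against 248 to 385 TPM) and ODF1 (1951 against 2084 to 2203 TPM) lay below all 3 BMI libraries, as did the spermatocyte sum (155 against 231 to 275 TPM). Of the regulators, its TCFL5 (274 TPM) lay above the BMI libraries and its MYBL1 (7.78 TPM) within them. The other 6 lay below all 3 of them, RFX2 (174.3 against a lowest of 174.8 TPM) and TBPL1 (43.3 against 43.8 TPM) only just, and CAMK4 (65.8 TPM), SOX5 (23.7 TPM), SOX30 (22.6 TPM) and CREM (195 TPM) further. The part of cell composition in these values was not tested.

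**Figure D5:**
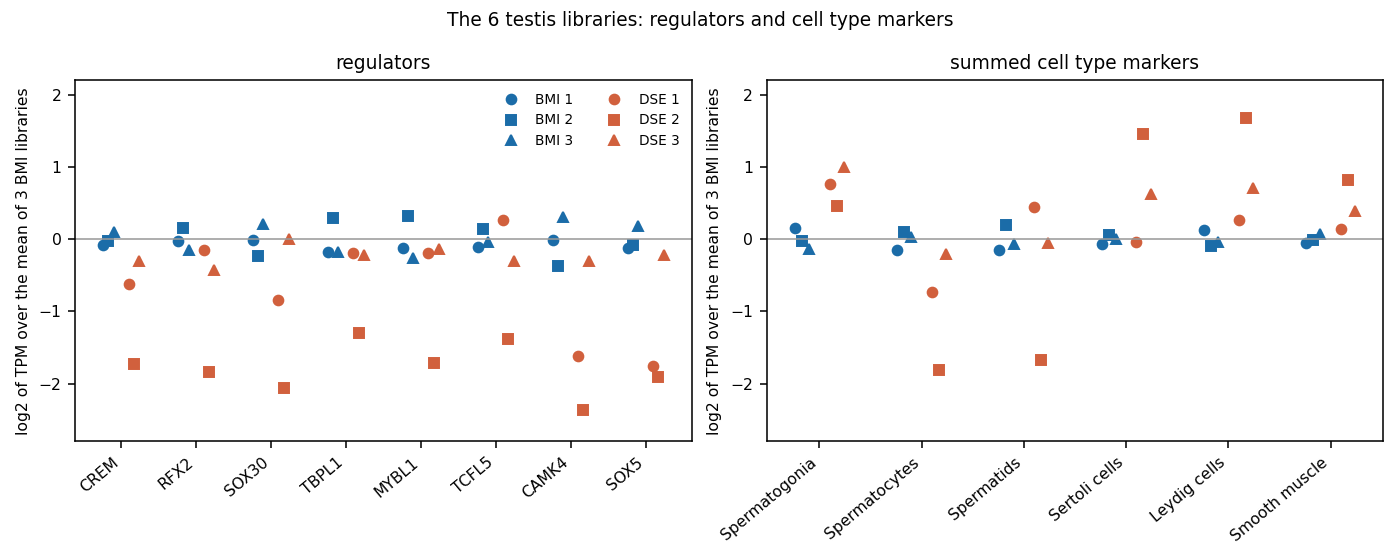
The 6 testis libraries, for the 8 regulators (left) and for summed markers of 6 cell types (right); the y axis is log2 of the TPM over the mean of the 3 BMI libraries, blue is BMI, orange is DSE and the symbol is the replicate. DSE 2 is lowest for every regulator and for spermatocyte and spermatid markers and highest for Sertoli, Leydig and smooth muscle markers, while DSE 1 is low for CAMK4, SOX5, SOX30 and CREM and for the spermatocyte sum, with the highest spermatid sum, which PRM1 and TNP1 dominate.

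Of the 46 member transcripts tested between breeds 10 were called, all lower in DSE, beside 4.96% of all transcripts. PB.2705.18 of CREM was 28.2, 39.5 and 43.7 TPM in BMI and 0, 15.7 and 28.5 TPM in DSE (difference -2.25 ± 0.65, adjusted p = 0.035). PB.2705.29 was 95.1, 97.6 and 107.2 TPM against 25.6, 45.7 and 75.6 TPM (-1.14 ± 0.22), and PB.2705.26 was 51.2, 57.6 and 75.2 TPM against 14.7, 27.1 and 41.9 TPM (-1.21 ± 0.22). PB.11126.4 of CAMK4 fell by 1.45, PB.14641.73 and PB.14641.75 of SOX5 by 1.23 and 1.06, and PB.239.7 of TBPL1 by 1.07. The 3 RFX2 transcripts called, PB.10665.16 (-1.46), PB.10665.17 (-1.22) and PB.10665.2 (-1.11), were minor forms, the highest library of PB.10665.2 standing at 13.5 TPM, and neither main form of RFX2 was called. Without DSE testis replicate 2 the count was 3, without replicate 3 it was 17, and in the fit of the 6 testis libraries alone it was 0, with 12 at an unadjusted p below 0.05.

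Transcript shares did not separate the breeds. None of the 18 member transcripts tested was called in share within testis (limma, 0 at an unadjusted p below 0.05), beside 0.419% of all transcripts tested. The difference was -5.73 ± 2.52 percentage points for PB.2705.29 of CREM, 4.56 ± 4.48 for PB.2705.21 and -2.32 ± 11.13 for PB.239.1 of TBPL1. Across the single libraries the upstream TBPL1 group ranged from 34.9% to 75.8%, lowest in DSE testis replicate 2 and highest in DSE testis replicate 1.

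In the other glands no regulator was called between breeds, but several could hardly have been. SOX30 was listed at 0 in all vesicular and prostate gland libraries, and the gland medians of MYBL1, CAMK4 and SOX5 were at most 0.535 TPM, so the result bears mainly on CREM, TBPL1, TCFL5 and, in the epididymis, RFX2. Over 4 glands and 8 genes there were 0 calls and 0 unadjusted p-values below 0.05 (limma), with the smallest adjusted p at 0.46. Of all genes tested, 0.703% were called in the epididymis, and 0.527%, 0.623% and 0.281% in the vesicular, prostate and bulbourethral glands. The breed difference in testis was set against the mean of those in the other glands by an interaction term, and 2 of the 8 genes were called, CAMK4 (-1.33 ± 0.34) and SOX5 (-1.34 ± 0.38), beside 5.04% of all genes.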

How the data were processed

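Members and gene lists were chosen with earlier results of these data known. The authors aligned long reads to Sscrofa11.1, collapsed them to isoforms and classified these against Ensembl; the deposited table gives full-length read counts per listed isoform, isoform lengths and predicted reading frames, and the deposited annotation gives exon coordinates. The authors quantified RNA-seq with Salmon 1.9.0 as TPM per transcript, which keep no read depth. Small RNA data were not used here. The labels name rRNA depletion for the RNA-seq libraries and the study's methods poly-T capture, and strandedness is not given in the sources used here. TPM were summed by gene. Genes or transcripts at 1 TPM in at least 3 of 30 libraries were tested with limma 3.58.1 (R 4.3.3) on log2(TPM + 1), so differences understate those of low genes, with Benjamini-Hochberg adjustment over all features. Shares were tested for genes of at least 1 TPM in 3 testis and 12 other libraries, on transcripts with a share of 0.05 in 3 libraries, with a minimum difference of 0.1. On simulated data, 98.5% of 200 genes planted at a log2 difference of 2 were recovered for testis against the other glands and 81.5% for the breeds in testis. Of the 175 simulated breed calls 12 were false. Each simulated gene had the same spread in every gland, unlike the regulators. Named were all members, their leading transcripts, those called in share or between breeds (the 3 largest per gene), the 2 most correlated genes, and the 3 largest and 2 smallest list differences. Alternatives were another pseudocount, filter, scaling, share scale, start distance, replicate block and leaving out each library.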

Additional observations from a re-analysis of the deposited data

Results flagged for a closer look

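The breed difference of CAMK4 in testis differed from that in the other glands by -1.33 on the log2(TPM + 1) scale (SE 0.34; limma interaction term over 30 libraries, adjusted p = 0.021), and that of SOX5 by -1.34 (SE 0.38, adjusted p = 0.04). The test of the difference between tissues drew attention to both. Outside testis the genes reached at most 1.18 and 1.13 TPM, so nearly the whole term came from testis. CAMK4 lost the call without DSE testis replicate 2 (-0.87, adjusted p = 0.13), BMI testis replicate 1 (0.064) or BMI testis replicate 3 (0.12). SOX5 lost it without any of a larger number of libraries, accessory glands included, with the highest adjusted p (0.23) and the value -1.04 without DSE testis replicate 2.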

How the results depend on the processing

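Testis against the other glands held: 8 of 8 genes were called in each fit, except 7 when CREM was taken as its 3-prime label alone (added after seeing the data), which reversed CREM to -1.21, and the differences of the single genes kept their sign otherwise. Leaving out each library in turn gave 8 genes, 34 to 38 transcripts higher in testis, 7 to 9 transcripts and 6 start groups called in share. Breed calls in testis did not hold. With a pseudocount of 0.1 TPM 0 genes were called (2 at an unadjusted p below 0.05) and 0 for the interaction with the other glands, and with the testis libraries alone 0 genes and 0 transcripts. Leaving out libraries gave 0 to 3 genes, 3 to 17 transcripts and 0 to 3 genes for the interaction, and 0 throughout for shares between breeds and for breeds in the other glands. Nothing in the labels says that a replicate number marks one boar or batch, and not every correlation of deviations was over 0.1 (-0.30 to 0.39 over 60 pairs in a breed, -0.21 to 0.12 between breeds in testis), so the numbers were not taken as pairs, although 21 of 30 libraries correlated best with their own number. With the replicate block 8 genes, 37 transcripts, 7 transcripts in share and 6 start groups were called between glands, 2 genes, 10 transcripts and 0 shares between breeds in testis, 0 in the other glands and 2 for the interaction, each as without it. Depth is not kept in TPM.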
